A study of Mus musculus with 15 samples.

Results

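The genes described here are 34 named markers of T cells and natural killer (NK) cells, followed in mouse liver RNA through a fatty liver diet and treatment with SR9009. They were given by name, with earlier results of these data known, and all 34 were found among the 57132 gene identifiers of the count table. The livers came from male C57BL/6J mice, an inbred laboratory strain, aged 8 weeks at the start. For 18 weeks SR9009 mice were fed CDA-HFD, a high-fat diet that is choline-deficient and amino-acid adapted and is used to induce steatohepatitis, and after the first 12 they received SR9009 intraperitoneally at 100 mg/kg every day for 6 weeks. Vehicle mice ate the same diet and were injected on the same schedule with the carrier, 15% Kolliphor ELP in saline. Chow mice ate standard chow for 18 weeks. The analysis used 5 SR9009, 5 Vehicle and 4 Chow libraries, each from a different mouse, out of arms of 15, 15 and 10 mice. Chow replicate 5 was not analysed here. Whether Chow mice also received injections is not stated, so in any comparison with Chow the diet and the injections cannot be told apart. The labels give no time of day for the collection.

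T cells recognise peptides on MHC molecules through a receptor that signals by way of the CD3 chains. The CD4 and CD8 co-receptors bind MHC class II and class I. They bring the kinase LCK to the receptor, and LCK activity lets the kinase ZAP70 dock on CD3. Co-stimulatory receptors such as CD28 strengthen this signal and inhibitory receptors such as PD-1 weaken it. CD8 T cells and NK cells kill target cells with perforin and granzymes, and NK cells choose targets with receptors such as NKG2D and NKp46. The liver normally holds many lymphocytes, and in steatohepatitis CD8 T cells that carry PD-1 are known to accumulate in it. SR9009 is a synthetic agonist of REV-ERB alpha and beta, nuclear receptors of the circadian clock.

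Library totals ranged from 29950509 to 45542335 counts. Values are given in CPM, the count as a share of the library total after scaling by TMM, times 1e6 (a factor that makes libraries comparable over most genes). On this scale 3 counts, the floor used here, correspond to 0.0607 to 0.0780 CPM in diet-fed libraries and 0.0859 to 0.124 CPM in Chow libraries. Hepatocyte markers summed to 64002 to 80256 CPM in SR9009, 77720 to 85198 CPM in Vehicle and 99845 to 139518 CPM in Chow libraries. The diet-fed libraries fell into 2 sets by how many of 1985 chemosensory receptor genes (olfactory, vomeronasal or trace amine) had a count. SR9009 replicates 2, 4 and 5 and Vehicle replicates 1, 2 and 3 had many (158 to 243). SR9009 replicates 1 and 3, Vehicle replicates 4 and 5 and the Chow libraries had 50 to 113.

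The promoters of the 4 members with the largest log2 fold change between Vehicle and Chow livers are shown as the regulatory sequence of the genes with the widest fitted gap. These genes had 1, 1, 2 and 13 counts over all Chow libraries for Pdcd1, Tigit, Gzmk and Cd8a, so their order rests on few Chow counts. Each is the 250 bases before the RefSeq start in build GRCm38.p6, on the gene's own strand. They lie at chr1:94052554-94052803 (minus strand) for Pdcd1, chr16:43664185-43664434 (minus) for Tigit, chr13:113180966-113181215 (minus) for Gzmk and chr6:71373177-71373426 (plus) for Cd8a. Capitals mark matches, on either strand, to 4 short motifs of lymphocyte transcription factors.
Pdcd1: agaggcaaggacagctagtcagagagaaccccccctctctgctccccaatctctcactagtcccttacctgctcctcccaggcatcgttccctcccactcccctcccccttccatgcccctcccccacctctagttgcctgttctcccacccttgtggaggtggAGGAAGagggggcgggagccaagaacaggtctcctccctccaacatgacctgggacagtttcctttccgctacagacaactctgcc
Tigit: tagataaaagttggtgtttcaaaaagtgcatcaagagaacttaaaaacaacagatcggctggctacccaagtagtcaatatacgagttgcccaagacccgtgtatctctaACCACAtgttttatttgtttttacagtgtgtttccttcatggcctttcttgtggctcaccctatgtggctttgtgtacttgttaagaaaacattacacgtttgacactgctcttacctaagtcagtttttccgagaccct
Gzmk: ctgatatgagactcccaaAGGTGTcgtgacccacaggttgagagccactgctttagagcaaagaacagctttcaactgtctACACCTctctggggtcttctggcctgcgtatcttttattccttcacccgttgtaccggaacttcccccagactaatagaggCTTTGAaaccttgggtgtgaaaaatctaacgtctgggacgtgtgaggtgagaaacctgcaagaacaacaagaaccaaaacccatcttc
Cd8a: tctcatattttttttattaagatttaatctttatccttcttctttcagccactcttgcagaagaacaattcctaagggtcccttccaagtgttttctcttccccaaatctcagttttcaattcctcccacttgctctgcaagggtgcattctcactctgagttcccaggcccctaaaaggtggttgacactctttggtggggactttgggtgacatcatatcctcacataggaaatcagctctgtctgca

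The motifs searched were TGTGGT for RUNX factors, AGGTGT for T-box factors such as the products of Tbx21 and Eomes, CTTTGA for TCF and LEF factors, and AGGAAG for ETS factors. No match overlapped another. Pdcd1 held 1 ETS match, with its first base at position -86 from the start, and Tigit 1 RUNX match on the opposite strand at -140. Gzmk held T-box matches at -232 and, on the opposite strand, at -169, and a TCF/LEF match at -88, while Cd8a held none. Of the 34 members 22 had a promoter entry. Among those 22, the RUNX letters were found in 10 (45.5%, against 15.9% of 27025 genes), the T-box letters in 9 (40.9%, against 13.6%) and the ETS letters in 12 (54.5%, against 32.3%). The TCF/LEF letters were in 3 of the 22 (13.6%, against 15.8% of genes). A match describes the letters only and is no evidence of binding, and no difference between these shares was tested.

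Most T and NK cell genes were higher in livers of diet-fed mice, with or without SR9009, than in Chow livers. Of the 33 members that passed the expression filter, 27 rose in Vehicle against Chow livers, none fell and 6 were not called (Cd4, Icos, Lag3, Gzma, Gzmb and Zap70), at an adjusted p under 0.05 in edgeR's quasi-likelihood test. Over all 18181 genes tested, 55.2% were called in this comparison, 29.8% higher and 25.4% lower. In SR9009 against Chow livers 28 members rose, 3 fell (Cd4, Lag3 and Zap70) and 2 were not called (Icos and Foxp3), where 56.2% of all genes were called, 30.5% higher and 25.7% lower. The median log2 fold change of the members was 2.14 in Vehicle against Chow and 2.05 in SR9009 against Chow, beside 0.02 over all genes in each. Using only diet-fed libraries with many receptor genes, 25 members rose and none fell in Vehicle against Chow (Cd27 and Cd3d lost), and 28 rose and 1 fell in SR9009 against Chow (Cd27, Cd4 and Lag3 lost, Foxp3 gained). Using only those with few, 21 rose and 1 fell in Vehicle against Chow (Cd2, Cd27, Cd3d, Foxp3, Klrb1c and Klrk1 lost, Cd4 gained as lower). In SR9009 against Chow 22 rose and 2 fell (Cd2, Cd27, Cd3d, Cd3g, Eomes, Gzma and Zap70 lost). With all libraries and a term for these sets, Cd2 was lost and Cd4 (lower) and Gzmb were gained in Vehicle against Chow, and Cd2 and Zap70 were lost in SR9009 against Chow. Both comparisons use the same Chow libraries, so they are not independent.

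These genes are thinly sequenced in whole liver, and this bears on what the counts above can say. Only 10 members were at the filter's level of 0.247 CPM in all 4 Chow libraries, and 12, including Cd8a, Cd8b1, Pdcd1, Tigit and Gzmk, reached it in none. Any tested member short of that level in a Chow library needed diet-fed libraries to pass, so it was favoured to lie above Chow. Those among the 12 passed through diet-fed libraries alone. The count of members that rose therefore gives no separate support. Of the 10, Cd3g, Lck, Thy1, Tox, Klrk1 and Il2rb rose in both comparisons with Chow. Icos was called in neither, and Cd4, Lag3 and Zap70 were called only as lower in SR9009 against Chow. Ctla4, an inhibitory receptor gene, did not pass. It had 3, 13, 9, 2 and 4 counts in SR9009 libraries, 4, 5, 5, 11 and 6 in Vehicle libraries and 1, 1, 2 and 5 in Chow libraries, and these ranges overlap. In bulk tissue a higher level can come from more cells of a type or from more RNA per cell, and these cannot be told apart.

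**Figure D1:**
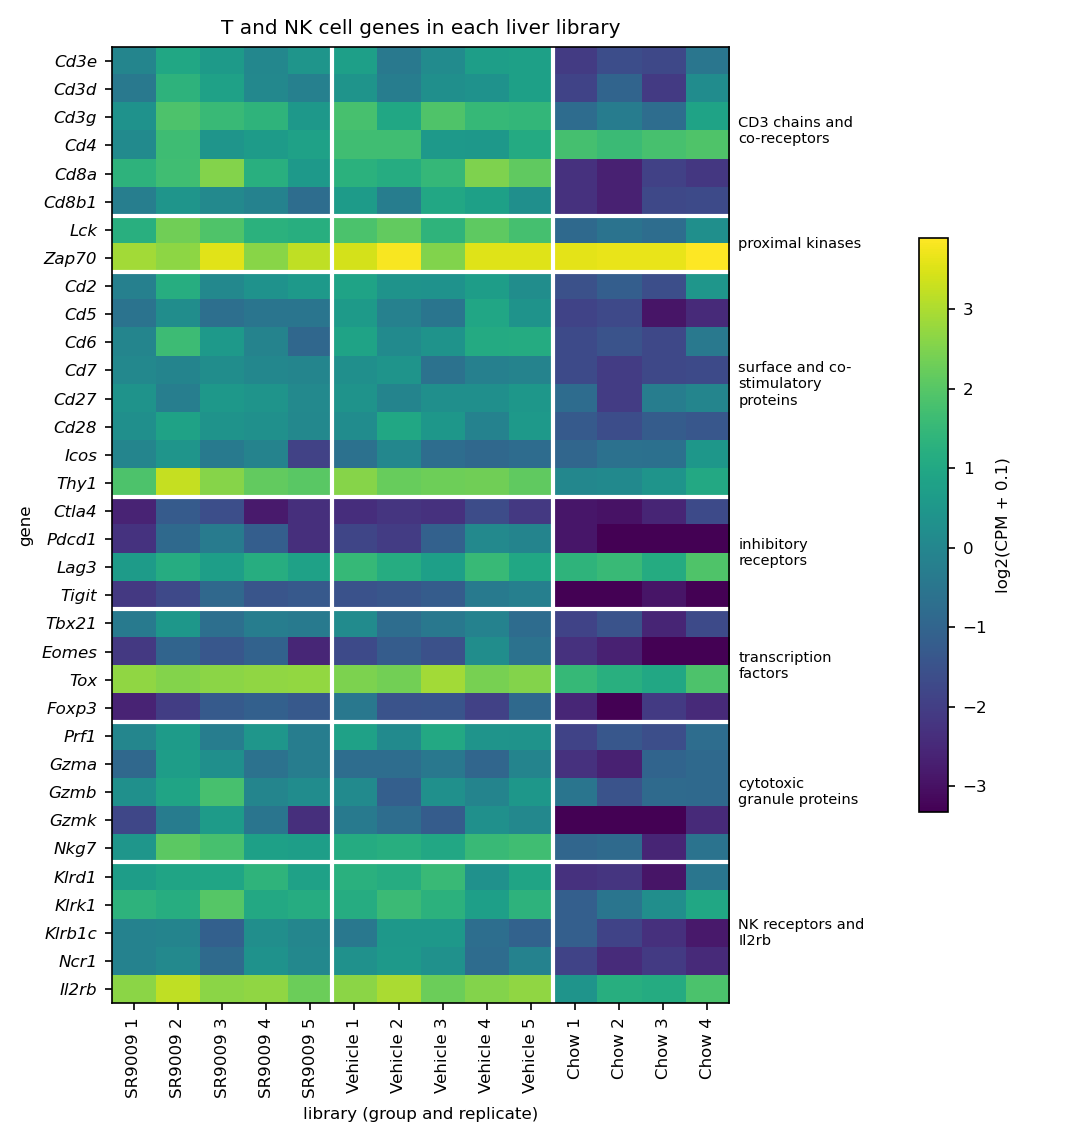
Level of each of the 34 T and NK cell genes (rows, grouped by role) in each of the 14 libraries (columns), as log2(CPM + 0.1) on the colour scale. Most rows are darker in the 4 Chow columns, while Cd4, Zap70 and Lag3 are as bright or brighter there.

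The T cell receptor complex and the CD8 co-receptor rose while Cd4 did not. Cd3e (ENSMUSG00000032093.8), an invariant signalling chain, was at 0.870, 1.87, 1.43, 0.918 and 1.26 CPM in SR9009 livers and at 1.57, 0.659, 1.01, 1.56 and 1.60 CPM in Vehicle livers, against 0.140, 0.229, 0.199 and 0.618 CPM in Chow livers. Every diet-fed library lay above every Chow library, the closest being Vehicle replicate 2 and Chow replicate 4. The rise was 4.42-fold in Vehicle against Chow (log2 fold change 2.14 ± 0.43 SE, adjusted p = 0.000486) and 4.36-fold in SR9009 against Chow (2.12 ± 0.43, adjusted p = 0.000521). Without Chow replicate 4 the rise of Cd3e was 6.65-fold in Vehicle and 6.55-fold in SR9009 against Chow. Cd3g rose 3.38-fold in Vehicle against Chow (adjusted p = 0.00184) and 2.72-fold in SR9009 against Chow (adjusted p = 0.00712). Cd3d rose 2.75-fold (adjusted p = 0.0282) and 3.02-fold (adjusted p = 0.0178) in these comparisons, but its groups overlapped. The Cd3d call in Vehicle against Chow was lost without Vehicle replicate 5 (adjusted p = 0.0564) or Chow replicate 1, 2 or 3 (0.0841, 0.0639 and 0.0852). In SR9009 against Chow it was lost without SR9009 replicate 2 (adjusted p = 0.0539) or Chow replicate 1 or 3 (0.0578 and 0.0571). Without Chow replicate 4 its rise was 4.82-fold in Vehicle (adjusted p = 0.00172) and 5.27-fold in SR9009 against Chow (adjusted p = 0.00113).

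Cd8a (ENSMUSG00000053977.14), the alpha chain of the CD8 co-receptor, showed the widest gap of the co-receptor genes. It had 115, 124, 221, 106 and 58 counts in SR9009 libraries and 102, 89, 131, 273 and 200 in Vehicle libraries, against 3, 2, 5 and 3 in Chow libraries. SR9009 replicate 3 and Vehicle replicates 4 and 5 were the highest, and no diet-fed library came near the Chow ones. Vehicle livers averaged 3.39 ± 1.47 CPM of Cd8a (SD, n = 5) and Chow livers 0.113 ± 0.0449 CPM (SD, n = 4), a 29.8-fold difference (log2 fold change 4.90 ± 0.54 SE, adjusted p = 1.98e-06). In SR9009 livers it was 2.98 ± 1.66 CPM (SD, n = 5), 26.1-fold above Chow (adjusted p = 2.84e-06). Cd8b1, the beta chain, which pairs with the alpha chain on conventional CD8 T cells, rose 9.71-fold in Vehicle (adjusted p = 1.02e-05) and 6.05-fold in SR9009 against Chow (adjusted p = 9.96e-05). A subset of mouse dendritic cells also carries the CD8 alpha chain, and markers of that subset rose in Vehicle against Chow livers too, Xcr1 5.56-fold (adjusted p = 3.6e-05) and Clec9a 1.92-fold (adjusted p = 0.00156). Of 6 dendritic cell markers 4 rose and none fell, where 29.8% of all genes were called higher and 25.4% lower. Their summed level was 14.5 to 22.3 CPM in SR9009, 19.96 to 26.4 CPM in Vehicle and 10.5 to 14.4 CPM in Chow libraries. The part of these markers in the Cd8a difference was not tested.

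Cd4 (ENSMUSG00000023274.15), the class II co-receptor of helper and regulatory T cells, was at 0.997, 3.06, 1.25, 1.45 and 1.63 CPM in SR9009 livers and 3.13, 3.08, 1.39, 1.34 and 2.03 CPM in Vehicle livers, against 3.30, 2.92, 3.38 and 3.63 CPM in Chow livers. Chow libraries were closely grouped, and only SR9009 replicate 2 and Vehicle replicates 1 and 2 reached their range. The log2 fold change was -0.59 ± 0.32 SE in Vehicle against Chow (adjusted p = 0.128), which was not called. Cd4 fell in SR9009 against Chow (log2 fold change -0.98 ± 0.32, adjusted p = 0.0168). In libraries with few receptor genes alone Cd4 was called lower in Vehicle against Chow as well (log2 fold change -0.97), as it was over all libraries with a term for the sets (-1.05, adjusted p = 0.0106), and in those with many alone the SR9009 against Chow call was lost (-0.70).

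**Figure D2:**
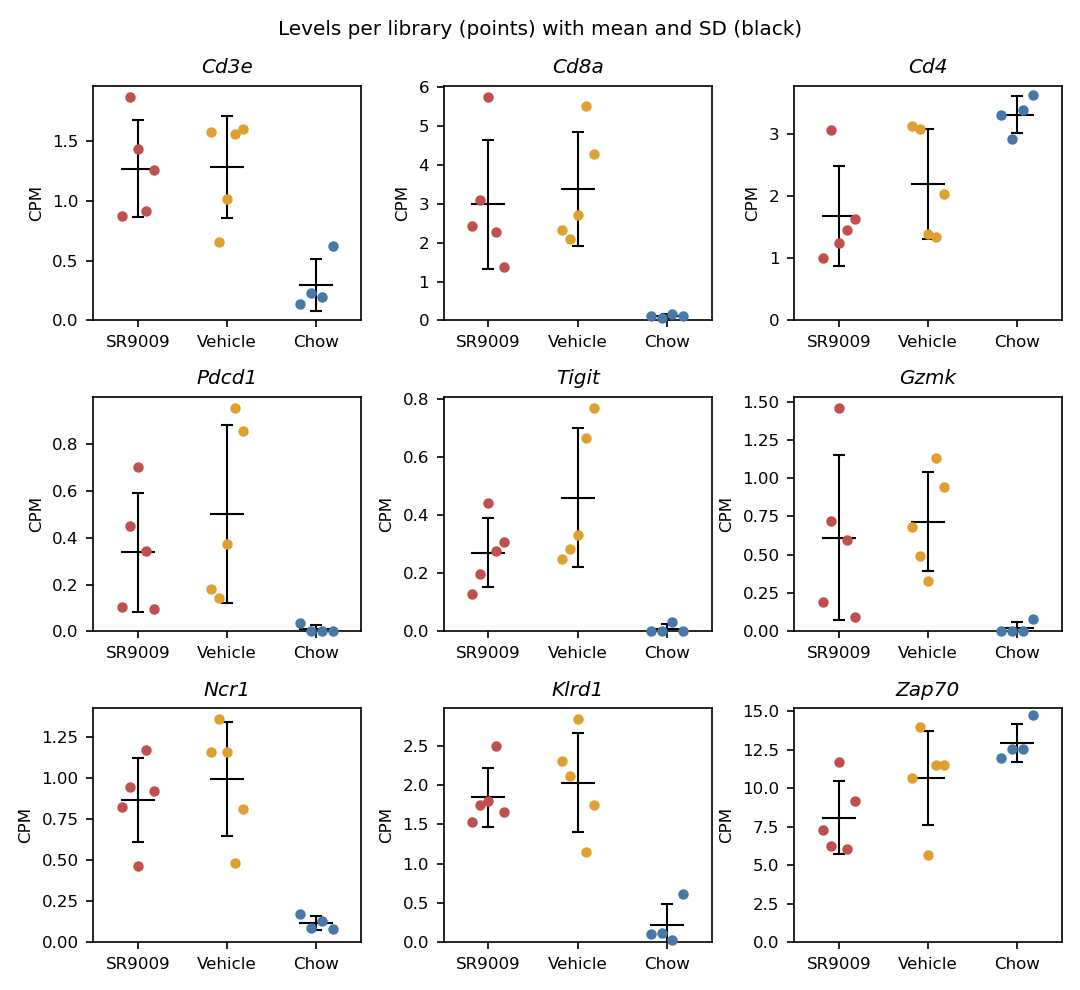
CPM of 9 T and NK cell genes in each library (points), with the group mean and SD (black; SD bars stop at 0), for 5 SR9009, 5 Vehicle and 4 Chow livers. Cd3e, Cd8a, Pdcd1, Tigit, Gzmk, Ncr1 and Klrd1 are above all Chow points in every diet-fed library, while Cd4 and Zap70 are highest in Chow on average.

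The receptor-proximal kinase genes went apart. Lck (ENSMUSG00000000409.15) was at 2.25, 4.93, 3.61, 2.35 and 2.18 CPM in SR9009 livers and 3.54, 4.40, 2.51, 4.19 and 3.31 CPM in Vehicle livers, against 0.456, 0.573, 0.497 and 1.11 CPM in Chow livers, with no overlap. It rose 5.50-fold in Vehicle (log2 fold change 2.46 ± 0.33 SE, adjusted p = 1.23e-05) and 4.69-fold in SR9009 against Chow (adjusted p = 3e-05). Zap70 (ENSMUSG00000026117.11) was at 7.30, 6.28, 11.7, 6.04 and 9.19 CPM in SR9009 livers and 10.7, 14.0, 5.65, 11.5 and 11.5 CPM in Vehicle livers, against 12.0, 12.6, 12.5 and 14.8 CPM in Chow livers. All 5 SR9009 libraries were below all 4 Chow libraries, whereas Vehicle replicate 2 lay within the Chow range. Zap70 fell in SR9009 against Chow (log2 fold change -0.68 ± 0.23 SE, adjusted p = 0.0191), a call lost without Chow replicate 4 (adjusted p = 0.0565) and with a term for the receptor gene sets (adjusted p = 0.107), and it was not called in Vehicle against Chow (-0.28 ± 0.23, adjusted p = 0.312). Per kilobase of exon Zap70 was the most abundant of the members in Chow livers, at 4.33 CPM per kilobase on average, against 0.225 CPM per kilobase for Lck there. There were 1.27 to 4.22 Zap70 counts per Lck count in SR9009 and 2.26 to 3.48 in Vehicle libraries, against 13.3 to 26.2 in Chow libraries.

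Among 8 surface and co-stimulatory genes, 7 rose in Vehicle against Chow and in SR9009 against Chow, all but Icos. Cd5, a restraint on T cell receptor signalling, rose 9.13-fold in Vehicle (adjusted p = 3.51e-05) and 5.23-fold in SR9009 against Chow (adjusted p = 0.000534). Cd28, the co-stimulatory receptor for CD80 and CD86, rose 4.41-fold (adjusted p = 2.31e-05) and 4.13-fold (adjusted p = 3.46e-05) in the same comparisons. These genes did not overlap between diet-fed and Chow libraries, and neither did Cd7, which rose 4.74-fold in Vehicle and 4.87-fold in SR9009 against Chow (adjusted p = 1.51e-05 and 1.22e-05). Cd6, which encodes a receptor for ALCAM, rose 4.91-fold in Vehicle (adjusted p = 0.00201) and 4-fold in SR9009 against Chow (adjusted p = 0.00531), where its groups overlapped. Thy1 encodes a surface protein of T cells that some fibroblasts also carry, and it averaged 5.44 ± 2.41 CPM in SR9009 livers, 4.90 ± 0.628 CPM in Vehicle livers (SD, n = 5 each) and 1.26 ± 0.470 CPM in Chow livers (SD, n = 4). It was called higher in both diet-fed groups (adjusted p = 2.02e-05 for SR9009 and 4.06e-05 for Vehicle). All 8 fibroblast and stellate cell markers rose as well, where 29.8% (Vehicle) and 30.5% (SR9009) of all genes were called higher against Chow. Their summed levels were 867 to 1599 CPM in SR9009, 940 to 1352 CPM in Vehicle and 176 to 245 CPM in Chow libraries. The part of these markers in the Thy1 difference was not tested.

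Cd2, an adhesion receptor that binds CD48 in mice, and Cd27, the receptor for CD70, also rose, and their groups overlapped. Cd2 rose 2.62-fold in Vehicle (adjusted p = 0.0165) and 2.51-fold in SR9009 against Chow (adjusted p = 0.0208). Cd27 rose 2.05-fold (adjusted p = 0.0256) and 2.0-fold (adjusted p = 0.0294). These calls did not hold without some single libraries. The Vehicle against Chow call of Cd2 was lost without Chow replicate 1, 2 or 3 (adjusted p = 0.0552, 0.0543 and 0.0566) and that of Cd27 without Chow replicate 1 or 2 (0.0602 and 0.0571). In SR9009 against Chow, Cd2 was lost without SR9009 replicate 2 (adjusted p = 0.0599) or Chow replicate 1, 2 or 3 (0.0679, 0.0662 and 0.0703). With a term for the receptor gene sets Cd2 was lost in Vehicle and in SR9009 against Chow (adjusted p = 0.0629 and 0.103). Without Chow replicate 4, which held 1.28 CPM of Cd2 beside 0.232 to 0.344 CPM in the other Chow libraries, its rise was 4.82-fold in Vehicle (adjusted p = 0.000129) and 4.61-fold in SR9009 against Chow (adjusted p = 0.000164). Cd27 was lost there without SR9009 replicate 1, 3 or 4 (adjusted p = 0.0507, 0.0572 and 0.0550) or Chow replicate 1 or 2 (0.0671 and 0.0673). Icos, a CD28 relative that binds ICOSL, averaged 0.758 ± 0.391 CPM in SR9009 livers, 0.580 ± 0.192 CPM in Vehicle (SD, n = 5 each) and 0.703 ± 0.414 CPM in Chow livers (SD, n = 4). Its log2 fold change was -0.26 with a 95% interval of -1.25 to 0.73 in Vehicle against Chow, so the data do not fix its direction.

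Pdcd1 and Tigit, both inhibitory receptor genes, were nearly without counts in Chow livers and rose in both diet-fed groups. Pdcd1 (ENSMUSG00000026285.9), which encodes PD-1, had 5, 18, 27, 16 and 4 counts in SR9009 libraries and 8, 6, 18, 47 and 40 in Vehicle libraries, against 1, 0, 0 and 0 in Chow libraries. Every diet-fed library held more counts than all Chow libraries together, and Vehicle replicates 4 and 5 held the most. With 1 Chow count in all, the ratio of scaled counts was 60.8 in Vehicle (95% exact counting interval 10.7 to 2420) and 38.4 in SR9009 (6.67 to 1539). Pdcd1 rose in Vehicle (adjusted p = 0.000719) and in SR9009 against Chow (adjusted p = 0.00217). Tigit (ENSMUSG00000071552.6), a receptor for the CD155 ligand encoded by Pvr, had 6, 8, 17, 13 and 13 counts in SR9009 libraries and 11, 12, 16, 33 and 36 in Vehicle libraries, against 0, 0, 1 and 0 in Chow libraries. Again no diet-fed library overlapped a Chow library, and Vehicle replicates 4 and 5 stood highest. Its ratio was 55.2 in Vehicle (9.69 to 2198, adjusted p of the fit 5.57e-05) and 31.3 in SR9009 (5.39 to 1257, adjusted p of the fit 0.000326). The single Chow count came from Chow replicate 1 for Pdcd1 and Chow replicate 3 for Tigit, and without that library no Chow count is left. The calls were made without it too, for Pdcd1 in Vehicle (adjusted p = 0.00262) and SR9009 against Chow (0.00555) and for Tigit (0.000211 and 0.0007). With Chow at 0 the gap can only widen, so these calls give no separate support. The intervals cover counting error only.

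Lag3 (ENSMUSG00000030124.3), an inhibitory receptor that binds MHC class II and FGL1, did not share this pattern. It was at 1.44, 2.12, 1.56, 2.18 and 1.63 CPM in SR9009 livers and 2.74, 2.09, 1.59, 2.79 and 1.88 CPM in Vehicle livers, against 2.49, 2.86, 2.09 and 3.63 CPM in Chow livers, and the groups overlapped. Lag3 fell in SR9009 against Chow (log2 fold change -0.63 ± 0.22 SE, adjusted p = 0.0257) and was not called in Vehicle against Chow (-0.31 ± 0.22, adjusted p = 0.248). The SR9009 against Chow call was lost without SR9009 replicate 1, 3 or 5 (adjusted p = 0.0581, 0.0524 and 0.0511) or Chow replicate 2 or 4 (0.0560 and 0.103). Lag3, Cd4 and Cd27 lie within 1 Mb of each other on chromosome 6. With libraries scaled by their raw totals, which moved the median log2 fold change of all genes to 0.50 in Vehicle and 0.47 in SR9009 against Chow, the falls of Cd4, Lag3 and Zap70 in SR9009 against Chow were no longer called (log2 fold change -0.52, -0.18 and -0.24). Under that scaling Lag3, Zap70 and Icos had positive log2 fold changes in Vehicle against Chow (0.16, 0.19 and 0.21), none of them called.

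All 4 transcription factor genes rose in Vehicle against Chow. Tox, a factor of exhausted CD8 T cells that other tissues also express, averaged 6.25 ± 0.282 CPM in SR9009 livers and 5.77 ± 0.943 CPM in Vehicle livers (SD, n = 5 each) against 2.62 ± 0.704 CPM in Chow livers (SD, n = 4). It rose 2.22-fold in Vehicle (adjusted p = 3.8e-05) and 2.40-fold in SR9009 against Chow (adjusted p = 1.5e-05). Tbx21, which encodes T-bet, the factor of type 1 lymphocytes, rose 3.86-fold in Vehicle (adjusted p = 0.000972) and 4.35-fold in SR9009 against Chow (adjusted p = 0.00047). Eomes, a T-box factor of memory CD8 T cells and NK cells, had 6, 16, 11, 18 and 3 counts in SR9009 libraries and 9, 14, 12, 52 and 26 in Vehicle libraries, against 3, 2, 0 and 0 in Chow libraries. Vehicle replicate 4 held the most. Eomes rose 10.7-fold in Vehicle (adjusted p = 0.00262) and 5.67-fold in SR9009 against Chow (adjusted p = 0.0218), the second call being lost without Chow replicate 3 or 4 (adjusted p = 0.0629 and 0.0548). Without Chow replicate 1 its rise was 19.5-fold in Vehicle and 10.3-fold in SR9009 against Chow. Foxp3, the factor of regulatory T cells, had 3, 6, 12, 17 and 13 counts in SR9009 libraries and 28, 11, 13, 8 and 21 in Vehicle libraries, against 2, 0, 4 and 2 in Chow libraries. It rose in Vehicle against Chow (4.95-fold, adjusted p = 0.0118), while SR9009 against Chow was just outside the threshold (3.35-fold, adjusted p = 0.0518) and was called without SR9009 replicate 1 or 2, Vehicle replicate 1 or 4 or Chow replicate 3 (adjusted p = 0.0227, 0.0489, 0.0478, 0.0483 and 0.0403). In the reference annotation 31.5% of Foxp3 exon bases overlap other genes, the most of any member, so its few counts may include theirs.

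Cytotoxic granule genes all had positive log2 fold changes in both comparisons with Chow. Gzmk (ENSMUSG00000042385.15), a granzyme of memory-like CD8 T cells, had 9, 29, 56, 28 and 4 counts in SR9009 libraries and 30, 21, 16, 56 and 44 in Vehicle libraries, against 0, 0, 0 and 2 in Chow libraries. Every diet-fed library exceeded every Chow library, with SR9009 replicate 3 and Vehicle replicate 4 at the top and SR9009 replicate 5 nearest to Chow. The ratio of scaled counts was 42.6 in Vehicle (95% exact counting interval 11.6 to 355, adjusted p of the fit 0.000646) and 34.6 in SR9009 (9.37 to 289, adjusted p of the fit 0.00102). Without Chow replicate 4 no Chow count is left, and Gzmk was called in Vehicle (adjusted p = 0.00108) and in SR9009 against Chow (0.00148). The gap can only widen there, so these calls give no separate support. Without SR9009 replicate 3 the fitted fold in SR9009 against Chow was 19.7 (adjusted p = 0.0019). Prf1, the pore-forming perforin, rose 4.77-fold in Vehicle (adjusted p = 6.27e-05) and 3.46-fold in SR9009 against Chow (adjusted p = 0.000493). Nkg7, a granule membrane protein, rose 6.42-fold (adjusted p = 0.000147) and 6.26-fold (adjusted p = 0.000164), and neither gene overlapped with Chow in these comparisons.

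Gzmb, the granzyme that activates caspases, was at 1.12, 1.74, 3.38, 0.875 and 1.04 CPM in SR9009 livers and 1.0, 0.353, 1.14, 0.85 and 1.30 CPM in Vehicle livers, against 0.596, 0.258, 0.463 and 0.453 CPM in Chow livers. SR9009 replicate 3 stood highest and Vehicle replicate 2 lay within the Chow range. Gzmb rose in SR9009 against Chow (3.68-fold, adjusted p = 0.00255) and was not called in Vehicle against Chow (2.11-fold, adjusted p = 0.0588), although it was without SR9009 replicate 3 or Vehicle replicate 2 (adjusted p = 0.0255 and 0.0196), with a term for the receptor gene sets (0.0206), with raw totals (0.00641) and by DESeq2. Gzma, the other main granzyme of NK cells, was called in SR9009 against Chow (3.51-fold, adjusted p = 0.00816). It was not called in Vehicle against Chow (2.36-fold, adjusted p = 0.0588). Without Chow replicate 3 or 4 it was (adjusted p = 0.0407 and 0.0264), as it was with raw totals (adjusted p = 0.0109) and by DESeq2. A call in one diet-fed group and not in the other does not show that SR9009 and Vehicle differ, and in the direct comparison neither granzyme was called (adjusted p = 0.711 for Gzmb and 0.881 for Gzma).

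All 5 genes of NK cell receptors and the shared cytokine receptor chain rose in both comparisons with Chow. Ncr1 (ENSMUSG00000062524.5), which encodes NKp46, had 39, 38, 18, 55 and 39 counts in SR9009 libraries and 51, 58, 56, 24 and 38 in Vehicle libraries, against 5, 3, 4 and 2 in Chow libraries, with no overlap. It rose 8.18-fold in Vehicle (log2 fold change 3.03 ± 0.42 SE, adjusted p = 1.8e-05) and 7.15-fold in SR9009 against Chow (adjusted p = 3.36e-05). Klrb1c, the NK1.1 antigen of this strain, had 39, 34, 14, 51 and 38 counts in SR9009 libraries and 28, 57, 65, 25 and 18 in Vehicle libraries, against 10, 6, 3 and 1 in Chow libraries. SR9009 replicate 3 and Vehicle replicates 4 and 5, the libraries with the most Cd8a, had the lowest diet-fed levels of Klrb1c and Ncr1 in CPM. Klrk1 was instead highest in SR9009 replicate 3 (3.90 CPM). Klrb1c rose 4.93-fold in Vehicle (adjusted p = 0.00206) and 4.73-fold in SR9009 against Chow (adjusted p = 0.00249), a Vehicle against Chow call lost in libraries with few receptor genes alone (log2 fold change 1.39). Without Chow replicate 1 the rise of Klrb1c was 7.54-fold in Vehicle and 7.23-fold in SR9009 against Chow.

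Klrd1, which encodes CD94 and is carried by NK cells and activated CD8 T cells, rose 9.87-fold in Vehicle (adjusted p = 4.83e-05) and 8.96-fold in SR9009 against Chow (adjusted p = 7.05e-05). Chow replicate 4 held 15 of the 23 Chow counts of Klrd1, and without it the rise was 23.1-fold in Vehicle and 21.0-fold in SR9009 against Chow. Klrk1, which encodes the activating receptor NKG2D, rose 2.38-fold (adjusted p = 0.00914) and 2.61-fold (adjusted p = 0.00471). Il2rb, the beta chain that binds interleukin 2 and interleukin 15, averaged 6.48 ± 1.58 CPM in SR9009 livers and 6.17 ± 1.08 CPM in Vehicle livers (SD, n = 5 each) against 2.25 ± 0.941 CPM in Chow livers (SD, n = 4). It rose 2.76-fold in Vehicle (adjusted p = 0.000145) and 2.90-fold in SR9009 against Chow (adjusted p = 9.16e-05). Across the members, libraries of Vehicle and Chow did not overlap for 23, all higher in Vehicle, where 45.4% of all genes did not overlap and 24.7% did so with Vehicle higher. For SR9009 and Chow the number was 22, with 21 higher in SR9009 and Zap70 lower. Of all genes 46.5% did not overlap, 25.5% with SR9009 higher. Members that passed the filter only through diet-fed libraries were favoured to lie above Chow, so these counts give no separate support.

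**Figure D3:**
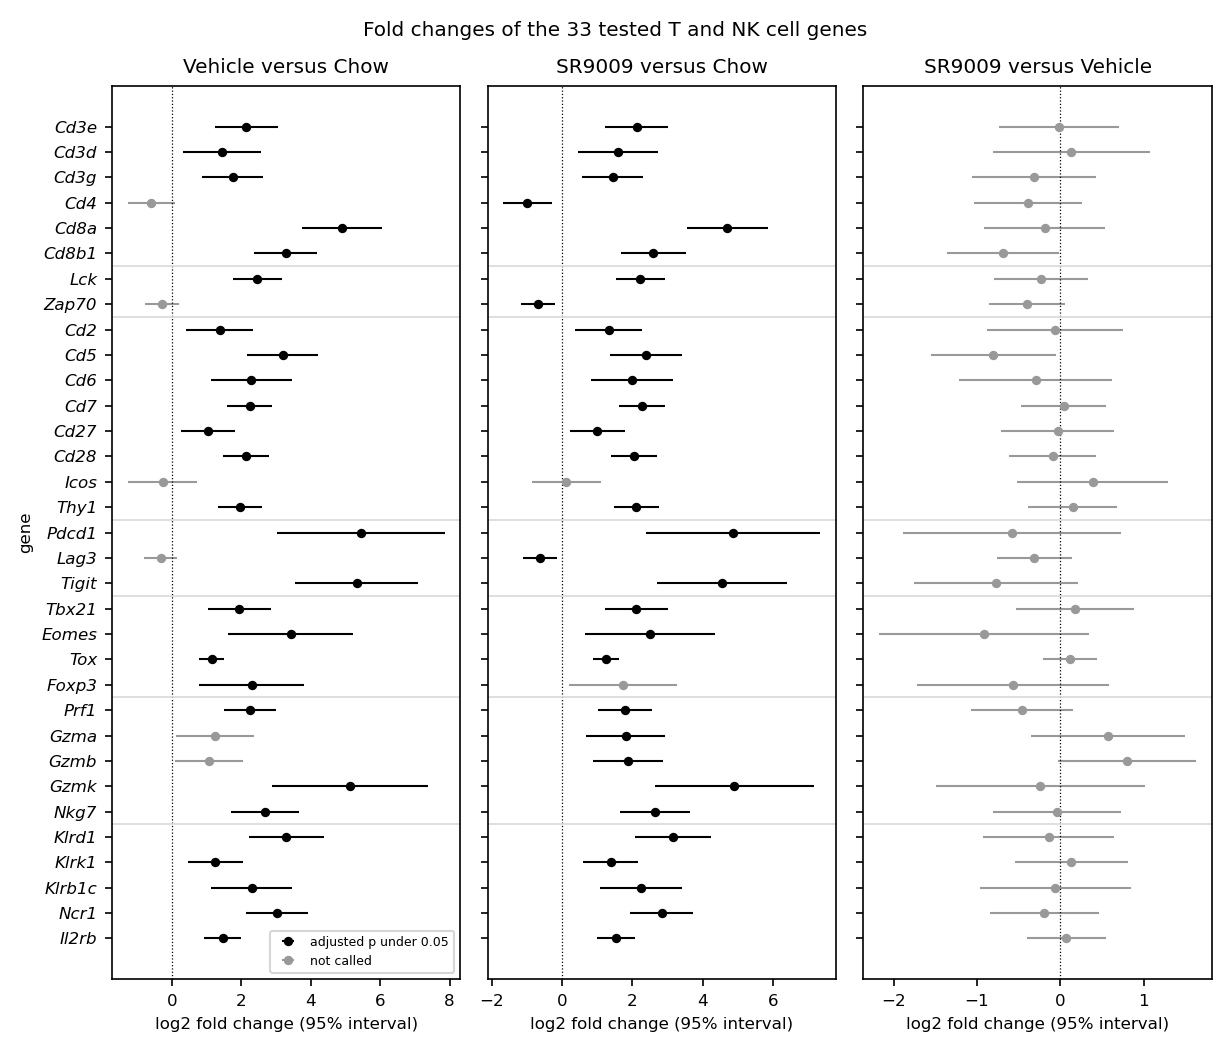
Log2 fold change (points) with 95% interval (lines) of the 33 tested T and NK cell genes in each comparison, black where the adjusted p was under 0.05 and grey otherwise. Vehicle against Chow has 27 black points, SR9009 against Chow 31, of which Cd4, Zap70 and Lag3 are below 0, and SR9009 against Vehicle none.

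Total leukocyte RNA was higher too, so the members were also set against Ptprc, which encodes CD45, a surface phosphatase of all leukocytes. Ptprc rose 3.90-fold in Vehicle (adjusted p = 3.14e-06) and 3.64-fold in SR9009 against Chow (adjusted p = 4.71e-06). Per 100 Ptprc counts there were 5.06 to 16.1 counts of Cd3e, Cd3d and Cd3g together in SR9009, 5.92 to 13.6 in Vehicle and 5.94 to 18.2 in Chow libraries, with means of 10.8, 11.2 and 12.3. The CD3 genes thus had overlapping ranges per unit of Ptprc in all groups. Cd8a gave 3.70 to 12.7 counts per 100 Ptprc counts in SR9009 and 3.82 to 12.6 in Vehicle, against 0.548 to 1.56 in Chow libraries, and these did not overlap with Chow. Cd4 went the other way, at 1.86 to 6.24 in SR9009 and 3.05 to 6.19 in Vehicle against 19.6 to 49.0 in Chow libraries. In every Chow library Cd4 had more counts than Cd3e, Cd3d and Cd3g together, and which cells its RNA came from was not tested. Ncr1 and Klrb1c together gave 1.83 to 5.62 in SR9009 and 2.26 to 5.88 in Vehicle, within the Chow range of 0.667 to 7.81. Directly against each other, there were 0.841 to 4.60 Cd8a counts per Cd4 count in SR9009, 0.679 to 4.14 in Vehicle and 0.0196 to 0.0490 in Chow libraries. Ratios of counts from whole liver are not ratios of cells, and they are given without a test.

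**Figure D4:**
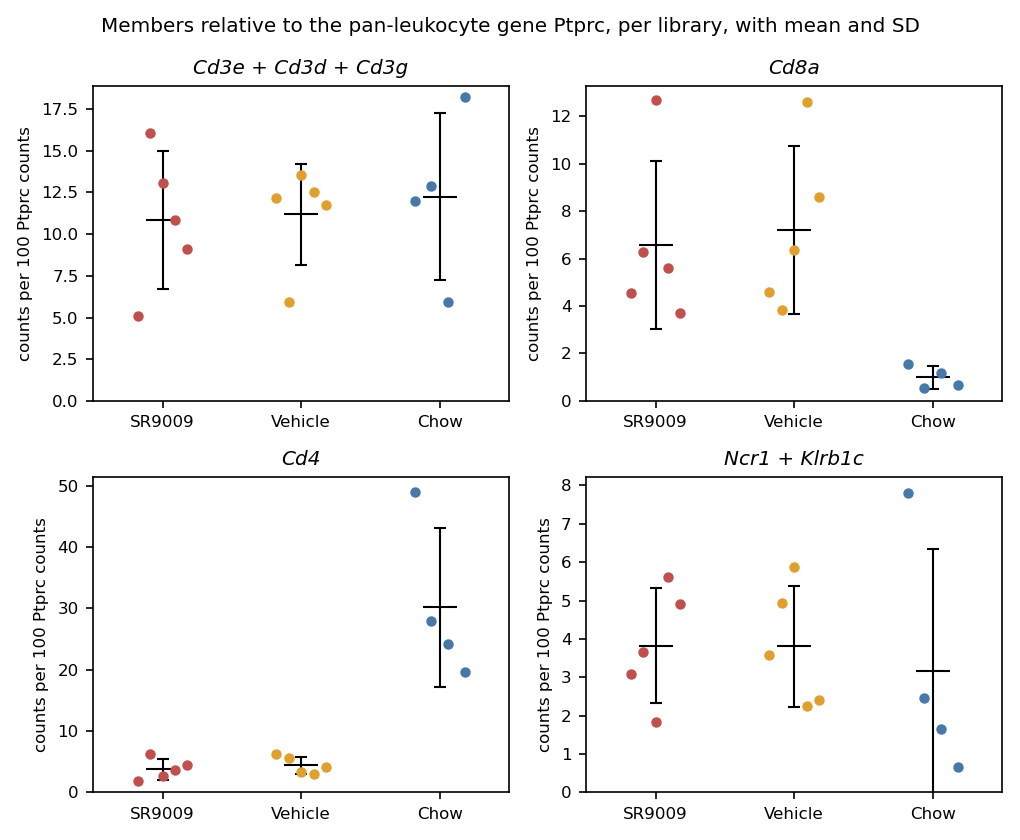
Counts of T and NK cell genes per 100 counts of the pan-leukocyte gene Ptprc in each library (points), with the group mean and SD (black; SD bars stop at 0), for 5 SR9009, 5 Vehicle and 4 Chow livers. Cd8a lies higher and Cd4 lower in all diet-fed libraries than in all Chow libraries, while the CD3 genes and the NK genes overlap.

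Other genes listed for these cells mostly moved the same way. All 19 T cell receptor and signalling genes outside the members rose in Vehicle against Chow and in SR9009 against Chow. Their median log2 fold changes were 2.17 and 2.13. Of all genes tested, 29.8% and 30.5% were called higher in these comparisons. Trbc1, a constant region of the T cell receptor beta chain, rose 5.55-fold in Vehicle (adjusted p = 4.18e-05). Trdc, the constant region of the delta chain of gamma-delta T cells, rose 5.14-fold in Vehicle (adjusted p = 0.0311). Trdc had 2, 0, 0 and 2 counts in Chow libraries and passed the filter through the diet-fed ones. Listed genes that passed in this way were favoured to rise, so the counts of listed genes that rose give no separate support. Themis, a T cell signalling protein, averaged 13.5 ± 5.95 CPM in SR9009 livers and 12.2 ± 2.75 CPM in Vehicle livers (SD, n = 5 each). In Chow livers it averaged 1.14 ± 0.71 CPM (SD, n = 4). It was highest in SR9009 replicate 1, at 23.7 CPM, the SR9009 library with the lowest Cd3e, Cd3d and Cd3g levels. Of 28 T cell state genes 23 were tested, and 19 rose, 1 fell and 3 were not called in Vehicle against Chow. Il7r, the interleukin 7 receptor of naive and memory T cells, rose 25.1-fold (adjusted p = 3.52e-09), Havcr2, which encodes the inhibitory receptor TIM-3 and is also on myeloid cells, 12.4-fold (adjusted p = 5.45e-08), and the chemokine gene Ccl5 11.1-fold (adjusted p = 8.03e-08). Tnfrsf9, an activation receptor chosen here after its values were seen, had 19, 37, 11, 52 and 15 counts in SR9009 and 26, 67, 38, 19 and 19 in Vehicle libraries against 0 in every Chow library, at least 24.5-fold and 28.8-fold higher against a floor of 3 counts over the group.

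Among 17 tested NK and innate lymphoid genes outside the members 12 rose, 1 fell and 4 were not called in Vehicle against Chow. Of all genes tested, 29.8% were called higher and 25.4% lower there. Slamf7, a receptor of NK cells, plasma cells and macrophages, rose 26.8-fold (adjusted p = 1.03e-07), Itga2, which encodes the NK antigen CD49b, 9.35-fold (adjusted p = 3.55e-06), and Klra3, an NK receptor of the Ly49 family, 9.84-fold (adjusted p = 6.64e-05). Ly49 genes are near-identical in places, so reads may be shared among them. The gene that fell was S1pr5, a receptor for sphingosine 1-phosphate, named after its values were seen, averaging 2.62 ± 1.04 CPM in SR9009 livers and 2.61 ± 1.26 CPM in Vehicle (SD, n = 5 each) against 8.92 ± 0.901 CPM in Chow livers (SD, n = 4). In SR9009 against Chow, 17 state genes rose and 1 fell, and 13 of the NK and innate lymphoid genes rose and 1 fell. Of all genes tested, 30.5% were called higher and 25.7% lower there.

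Most ligands of the members and lymphocyte growth factors rose as well, 15 of 22 tested in Vehicle against Chow, with 2 lower and 5 not called. Of all genes tested, 29.8% were called higher and 25.4% lower in that comparison. Cd274, which encodes the PD-1 ligand PD-L1, rose 4.03-fold in Vehicle (adjusted p = 3.26e-06) and 3.73-fold in SR9009 against Chow (adjusted p = 5.37e-06). Cd48, the ligand of CD2, rose 7.54-fold in Vehicle (adjusted p = 3.1e-08), Alcam, the ligand of CD6, 2.71-fold (adjusted p = 2.9e-06), and Cxcl16, the ligand of the chemokine receptor CXCR6, 4.95-fold (adjusted p = 2.97e-09). Il7, the growth factor for the receptor encoded by Il7r, rose 4.68-fold (adjusted p = 1.16e-05). Il18, a cytokine that activates NK cells, fell (0.728-fold, adjusted p = 0.00133). Clec2d, which encodes a ligand of NK receptors of the Klrb1 family and was named after its values were seen, also fell, averaging 63.8 ± 12.3 CPM in SR9009 livers and 55.7 ± 15.7 CPM in Vehicle (SD, n = 5 each) against 130 ± 13.9 CPM in Chow livers (SD, n = 4). Fgl1, a ligand of LAG3, was not called (1.09-fold, adjusted p = 0.818).

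With all Chow libraries included, most B cell markers were not called, unlike the T and NK cell genes. Of 11 B cell markers 1 rose, none fell and 10 were not called in Vehicle against Chow, and the one that rose, Cd22, was 4.15-fold higher (adjusted p = 2.03e-06). In SR9009 against Chow Cd22 rose and Pax5, Fcer2a and Cr2 fell. All 5 pan-leukocyte and all 8 macrophage markers rose in both comparisons, and so did all 5 proliferation genes. Of all genes tested, 29.8% were called higher and 25.4% lower in Vehicle against Chow. In SR9009 against Chow these shares were 30.5% and 25.7%. Chow replicate 4 stood apart from the other Chow libraries in lymphocyte and leukocyte genes. Its summed level of the members was 45.7 CPM against 28.9 to 30.1 CPM in the other Chow libraries, its pan-leukocyte sum was 74.3 CPM against 24.5 to 42.4 CPM, and its B cell sum was 28.2 CPM against 11.5 to 15.7 CPM. The B cell sum was 17.3 to 20.9 CPM in SR9009 and 19.8 to 27.5 CPM in Vehicle libraries. These lay below Chow replicate 4 and above the other Chow libraries. B cell calls without Chow replicate 4 are not given here. The summed level of 5 lymph node stroma markers was 7.05 CPM in it and 0.842 to 3.38 CPM in the other Chow libraries, while SR9009 libraries reached 6.37 CPM and Vehicle libraries 5.81 CPM, and Glycam1, a marker of lymph node vessels, had 3 counts in it and none elsewhere. The summed level of 4 plasma cell markers was highest in Chow replicate 2, at 55.0 CPM, with 7.93 to 17.6 CPM in the other Chow libraries. The part of these markers in the members' levels was not tested. Diet-fed libraries had member sums of 51.1 to 81.7 CPM in SR9009 and 60.6 to 71.0 CPM in Vehicle. Without Chow replicate 4, 28 members rose in Vehicle against Chow and 27 in SR9009 against Chow, with Cd4 the one that fell.

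**Figure D5:**
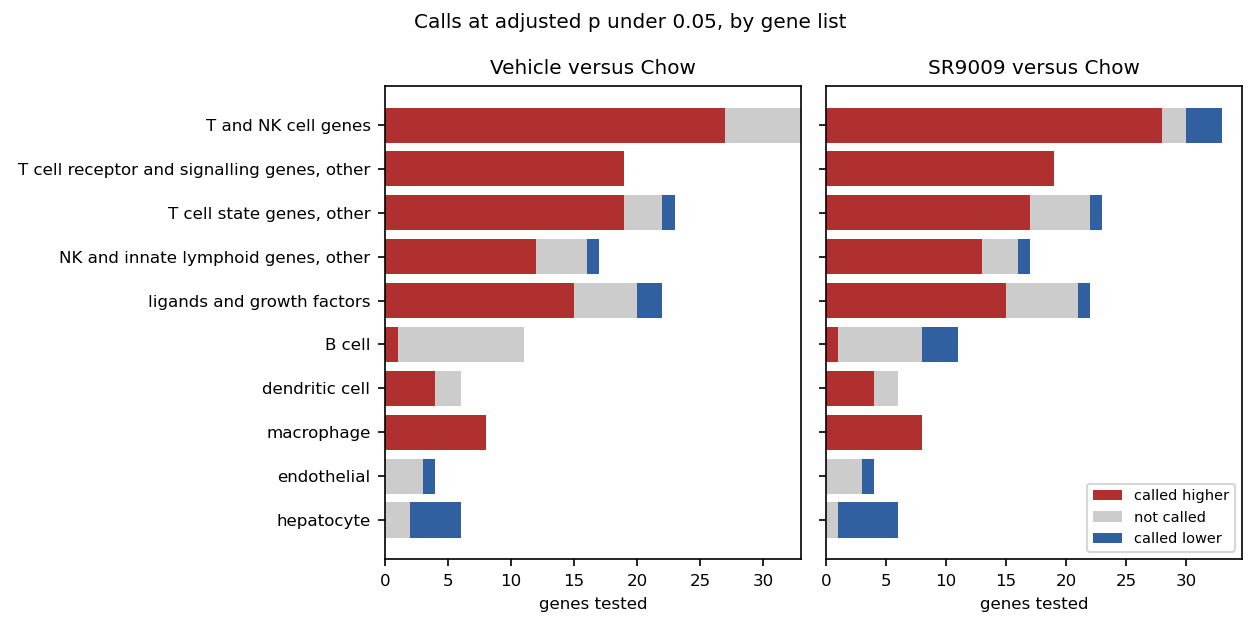
Number of tested genes called higher (red), not called (grey) and called lower (blue) at an adjusted p under 0.05 in the T and NK cell genes and in 9 other lists, for Vehicle against Chow and SR9009 against Chow. The lists of T and NK cell genes are mostly red (27 of 33 and 28 of 33 for the T and NK cell genes), whereas 10 of 11 B cell markers are grey in Vehicle against Chow.

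The comparison of SR9009 with Vehicle asked whether the agonist changed these genes in diet-fed livers. None of the 33 members was called, where 0.242% of all genes were (44 genes, with 0.165% higher and 0.077% lower). DESeq2 called none of the members either. At an unadjusted p under 0.05 there were 2 members, 3 with DESeq2, where edgeR gave 7.28% of all genes. Libraries of SR9009 and Vehicle overlapped for every member, where 1.87% of all genes did not overlap. The median log2 fold change was -0.14, beside 0.00 over all genes, with 10 members above 0 and 23 below.

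The members nearest to a difference were Cd5 and Cd8b1. Cd5 was at 0.573, 1.07, 0.520, 0.597 and 0.592 CPM in SR9009 livers, against 1.41, 0.8, 0.6, 1.82 and 1.22 CPM in Vehicle livers, a ratio of 0.573 (95% interval 0.340 to 0.966, unadjusted p = 0.0380, adjusted p = 0.637). Cd8b1 was at 0.742, 1.25, 0.962, 0.811 and 0.497 CPM in SR9009 livers, against 1.46, 0.729, 1.93, 1.60 and 1.11 CPM in Vehicle livers, a ratio of 0.623 (0.391 to 0.993, unadjusted p = 0.0468, adjusted p = 0.670). Both fail the correction over all genes and their groups overlap. Gzmb had the highest log2 fold change, 0.80 with a 95% interval of -0.03 to 1.63, and Eomes the lowest, -0.92 with an interval of -2.17 to 0.34.

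For 18 of the 33 members the 95% interval of SR9009 against Vehicle lay within a 2-fold change in either direction, so larger differences are outside those intervals. Tox had the narrowest (log2 fold change 0.11, -0.21 to 0.44). Cd3e was at 0.986 times its Vehicle level (0.598 to 1.62) and Cd8a at 0.877 times (0.529 to 1.46). The sparse genes allow more, Pdcd1 being at 0.669 times (0.270 to 1.66) and Tigit at 0.586 times (0.297 to 1.16). A missed threshold does not show that SR9009 and Vehicle livers were alike for these genes. No member was called within the libraries with many receptor genes or within those with few. In those sets the log2 fold change of SR9009 against Vehicle was 0.32 (many) and -1.18 (few) for Pdcd1, 0.12 and -1.97 for Eomes, and -0.09 and -0.26 for Cd8a. The difference between the sets was not tested. None of the genes in the 15 other lists was called between SR9009 and Vehicle, edgeR counting 3 T cell state genes, 3 B cell genes, 1 ligand and 1 macrophage gene at an unadjusted p under 0.05.

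Single mice of the diet-fed groups differed in which lymphocyte genes were high. Cd8a, Pdcd1, Tigit and Gzmk each had their 3 highest levels in SR9009 replicate 3 and Vehicle replicates 4 and 5. Cd8a was at 5.74 CPM in SR9009 replicate 3, and at 5.53 and 4.27 CPM in Vehicle replicates 4 and 5. Ncr1, at 0.468 CPM in SR9009 replicate 3 and 0.486 and 0.811 CPM in Vehicle replicates 4 and 5, and Klrb1c, at 0.364, 0.506 and 0.384 CPM, had their lowest diet-fed levels there. These libraries had few receptor genes detected (75, 63 and 82). SR9009 replicate 1, also with few (69), had 2.44 CPM of Cd8a and 0.827 CPM of Ncr1. Other CD8 and NK members did not fully share this. Cd8b1 was highest in Vehicle replicate 3 (1.93 CPM), with 0.962 CPM in SR9009 replicate 3 and 1.60 and 1.11 CPM in Vehicle replicates 4 and 5. In the same order Klrk1 was at 3.90, 1.58 and 2.46 CPM and Klrd1 at 1.79, 1.15 and 1.75 CPM. Klrk1 was highest of all libraries in SR9009 replicate 3. The pattern was seen in the values and carries no test, and the part of the receptor gene sets in it was not tested.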

How the data were processed

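Whole-liver RNA was sequenced from snap-frozen pieces. The authors deposited raw counts per gene for each library, and STAR 2.7.11b and GRCm39 are named in the submitters' processing notes. No source used here gives how reads were counted, on which annotation or by which strand, so reads of overlapping genes (8 members share exon bases with another gene) may be mixed. Symbols came from a GENCODE M21 table by gene identifier, used for names only, with 51880 of 57132 identifiers matched (90.8%, holding 99.6% of counts). Groups came from the sample labels, and 15 samples were described, of which 14 had a column.

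Genes were filtered with filterByExpr (minimum count 10, minimum total 15), leaving 18181. Library totals were scaled by TMM, with factors of 0.753 to 0.824 in Chow and 1.02 to 1.15 in diet-fed libraries. One edgeR 4.0.16 quasi-likelihood fit (robust, R 4.3.3) over all 14 libraries gave the 3 comparisons, with Benjamini-Hochberg adjustment over all genes tested and a threshold of 0.05. It was tested on simulated data. SE and 95% intervals of log2 fold changes come from that fit. Ratios against groups with few counts have exact binomial intervals, which cover counting error only. Alternatives were DESeq2 1.42.0, its size factors, no filter, only the groups compared, a replicate block, a term for the receptor gene sets and leaving out each library. Raw totals and each receptor gene set alone were added after seeing the data. No library pair of a group agreed within sampling noise. The members and gene lists were chosen with earlier results of these data known. Named genes are all members and, from each other list, up to 4 tested genes with the smallest p in Vehicle against Chow and in SR9009 against Vehicle. Some results on genes outside the members are not reported here.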

Additional observations from a re-analysis of the deposited data

Results flagged for a closer look

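In 13 of 102 groups of 4 or 5 libraries, 1 library stood apart from the rest of its group by Dixon's gap test at the 95% level. Chance gives about 1 in 20, but that rate does not hold for sparse counts. A group with counts in only 1 library is always flagged, as for Pdcd1, Tigit and Gzmk in Chow. Chow replicate 4 was also the highest Chow library for genes that were not flagged, such as Cd3e, Cd3d, Cd3g and Lck. By the test it was flagged as highest of its group for 5 genes. It held 1.28 CPM of Cd2 (0.232 to 0.344 CPM in the other Chow libraries), 0.660 CPM of Cd6 (0.199 to 0.258), 1.32 CPM of Icos (0.421 to 0.544), 0.618 CPM of Klrd1 (0.0331 to 0.115) and 0.0824 CPM of Gzmk, which was 2 counts where the other Chow libraries had 0. Single counts set the Chow values of Pdcd1 (0.0351 CPM in Chow replicate 1) and Tigit (0.0331 CPM in Chow replicate 3). SR9009 replicate 2 stood high for Cd5 (1.07 CPM, with 0.520 to 0.597 in the other SR9009 libraries) and Tbx21 (1.32 CPM, with 0.520 to 0.725). SR9009 replicate 4 stood high for Klrd1 (2.5 CPM, with 1.53 to 1.79) and SR9009 replicate 3 for Klrk1 (3.90 CPM, with 1.94 to 2.46). Vehicle replicate 2 stood high for Icos (0.918 CPM, with 0.445 to 0.547), and Vehicle replicate 4 for Ctla4 (0.223 CPM or 11 counts, with 0.0912 to 0.128 CPM).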

How the results depend on the processing

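No member was called between SR9009 and Vehicle under any alternative run, and no called member changed direction. The number of members that rose was 21 to 29 in Vehicle against Chow and 22 to 29 in SR9009 against Chow over all alternatives. The number of all genes called between SR9009 and Vehicle moved from 44 to 206 with DESeq2, 15 with the replicate block, 78 with a term for the receptor gene sets, 13 within the libraries with many receptor genes and 6 within those with few, and to 18 to 56 when 1 library was left out. The share of those calls that were higher was 68.2%, and 59.2% with DESeq2, 53.5% with only SR9009 and Vehicle fitted, 93.3% with the replicate block, 100.0% within many and 83.3% within few. The causes were not tested. The replicate numbers pair no mice in the labels, and same-numbered libraries did not deviate together (13 correlations of -0.362 to 0.196, 3 over 0.1), and the block changed no call of a member. With raw totals the share of genes called higher was 88.3% in Vehicle against Chow, beside 54.0%, and 86.3% in SR9009 against Chow, beside 54.3%. A term for the receptor gene sets changed the calls of members named beside the results. DESeq2 also called Gzma and Gzmb in Vehicle against Chow and Foxp3 in SR9009 against Chow. Fitting only the groups compared left Pdcd1 under the filter in Vehicle against Chow, where 32 members passed, and Gzmb was gained. In SR9009 against Chow 28 members passed, and Cd27, Eomes, Gzmk, Pdcd1 and Tigit were not called. Only 1 of these was tested there, and the others did not pass the filter. Depth limits the sparse members, since 12 of 34 had no Chow library at the filter's level.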
